A study of Mus musculus with 9 samples.

Results

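The data described here are the reads of 38 skeletal muscle genes, out of 19481 genes in the deposited table, in 9 mouse tumors that grew under the skin. The genes were listed by symbol for their known place in muscle, and all 38 were found in the table. They comprise 11 genes of the fast sarcomere, 5 of the slow sarcomere, 8 sarcomere genes that all fibres share, 6 genes of calcium handling, 4 of muscle metabolism and 4 myogenic genes. The set was put together after *Mstn* and *Atp2a1* had been seen to differ between the shRNA and control tumors, so the members were chosen by measured values of these same tumors and the differences of *Mstn* and *Atp2a1* are given as a description, with no P of their own, although *Atp2a1* is included in the counts and medians over the members.

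Skeletal muscle contracts when calcium, released from the sarcoplasmic reticulum, binds troponin on the thin filament and lets the myosin heavy chain pull on actin. Fibres are typed by the heavy chain they carry: *Myh7* marks slow oxidative fibres, *Myh2* fast oxidative fibres, and *Myh1* and *Myh4* the fast fibres that rely more on glycolysis. Fast and slow fibres also carry their own troponins and calcium pumps, and satellite cells marked by *Pax7* replace damaged fibres by way of *Myod1* and *Myog*. A thin sheet of striated muscle, the panniculus carnosus, lies in mouse skin, and the muscles of the body wall lie beneath it.

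The tumors were syngeneic grafts of KLN205 cells, derived from a squamous carcinoma of the mouse lung. They grew in the right flank of female DBA/2 mice aged 6 to 8 weeks at injection, a strain with an intact immune system. The cells carried a doxycycline-inducible SMART shRNA, either a scrambled control (sh Control) or 1 of 2 hairpins against *Tmprss11b* (sh2 Tmprss11b and sh3 Tmprss11b), a gene for a membrane serine protease. Each group had 3 tumors, all groups received doxycycline water once the mean tumor volume had reached 100 mm3, and all tumors were taken on day 50. Total RNA came from a piece of 30 to 50 mg of the excised tissue, so that host tissue in the piece was sequenced with the carcinoma.

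Sequencing depth was even, with 20653219 to 24047784 gene-assigned reads in a tumor, and 3 reads correspond to 0.125 to 0.145 CPM (reads scaled to the library total). The target gene, listed under its older symbol *Tmprss11bnl*, had 18, 51 and 42 reads in the control tumors against 2 to 10 in the 6 shRNA tumors. The labels call the tumors of a group biological replicates and do not say more of their origin, so the errors given here measure the spread between these tumors.

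Muscle genes varied over orders of magnitude between tumors that carried the same shRNA. The carcinoma cells and the host are both from the mouse, and reads were not assigned to either. The summed level of the 38 genes, in TPM (reads corrected for gene length and scaled to the same total in each tumor), was 1004, 243 and 8101 in control tumors 1, 2 and 3. It was 527, 386 and 141 in the sh2 tumors and 2760, 310 and 593 in the sh3 tumors. Control tumor 3 stood far above the rest, sh3 tumor 1 and control tumor 1 came next, and sh2 tumor 3 was the lowest, so that the 3 groups overlapped. As a share of all TPM, the members took 0.810% in control tumor 3 and 0.0141% in sh2 tumor 3. The group means were 3116 ± 4333 TPM (SD, n = 3) for sh Control, 351 ± 195 TPM (SD, n = 3) for sh2 Tmprss11b and 1221 ± 1340 TPM (SD, n = 3) for sh3 Tmprss11b. The highest tumor exceeded the lowest 57.4-fold, and 183-fold once *Des*, *Eno3*, *Tnnt1* and *Ldb3*, which cells other than skeletal muscle can express, were left out. Without control tumor 3 the ratio was 19.6-fold. In bulk tissue, fewer muscle fibres and less RNA per fibre cannot be told apart.

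**Figure D1:**
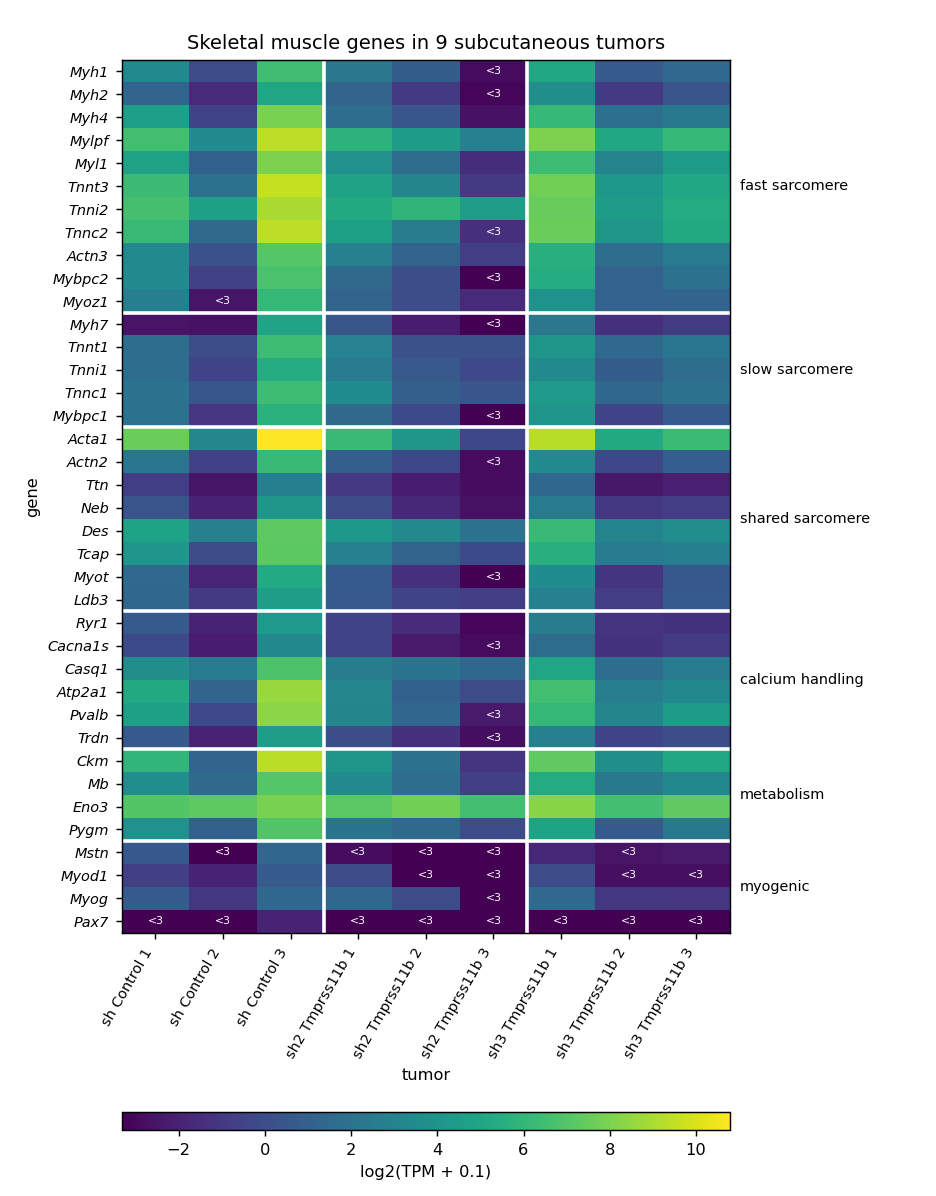
Level of each of the 38 genes (rows, grouped by role) in each tumor (columns, grouped by shRNA) as log2(TPM + 0.1), with values below 3 reads marked "<3". The columns of control tumor 3, sh3 tumor 1 and control tumor 1 are bright over nearly all rows and that of sh2 tumor 3 is dark, while the *Eno3* row is nearly even.

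The order of the tumors was nearly the same for gene after gene. Control tumor 3 was highest for 36 of the 38 genes, the exceptions being *Eno3* and *Myog*, which were highest in sh3 tumor 1. Among the 15575 genes of the table with at least 10 reads in some tumor, 12.3% were highest in control tumor 3. For 34 members sh3 tumor 1 came right after control tumor 3, and for 28 of these control tumor 1 was next. At the other end, sh2 tumor 3 was lowest or tied for lowest for 33 members, and 15 members had fewer than 3 reads there. Of all reads of a member over the 9 tumors, control tumor 3 held a median of 64.3%.

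The tumors also differed in how evenly the members were scaled. Control tumor 3 exceeded sh3 tumor 1 by a median of 3.23-fold over the 36 members with at least 10 reads in sh3 tumor 1, with an interquartile range from 2.78 to 4.01. It exceeded control tumor 1 by a median of 9.96-fold, again over 36 members, with an interquartile range from 8.89 to 12.9. Against sh2 tumor 1 the median was 19.3-fold with an interquartile range from 13.2 to 27.7. These medians leave out the members with the fewest reads in the lower tumor.

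The members were listed for their known place in muscle, and apart from a few neighbours they lie at separate places in the genome. *Myh2*, *Myh1* and *Myh4* lie side by side on the plus strand of chromosome 11 of the mm10 build (GRCm38, GENCODE M21 annotation), between 67171027 and 67260446. *Tnni2* (chromosome 7, 142441808 to 142444410) and *Tnnt3* (chromosome 7, 142498836 to 142516009) are also neighbours. The slow *Myh7* lies on chromosome 14 (54970684 to 54994626, minus strand), and *Mstn* on chromosome 1 (53061640 to 53068079, plus strand).

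The 250 bases before the start of each gene were read from the RefSeq promoter windows of GRCm38.p6, which held 29 of the 38 members. The windows of the main fast and slow myosin, of skeletal actin and of *Mstn* are shown 5′ to 3′, with capitals for E-boxes (CANNTG, bound by MyoD family factors), MEF2 sites and CArG boxes (the site of serum response factor).
*Myh4* (chr11:67237562-67237811, plus strand): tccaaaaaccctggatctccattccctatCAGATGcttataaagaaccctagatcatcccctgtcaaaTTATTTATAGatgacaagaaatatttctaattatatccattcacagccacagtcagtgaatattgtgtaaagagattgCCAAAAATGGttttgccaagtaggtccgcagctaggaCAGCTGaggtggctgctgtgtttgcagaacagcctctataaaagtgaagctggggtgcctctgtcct
*Myh7* (chr14:54994627-54994876, minus strand): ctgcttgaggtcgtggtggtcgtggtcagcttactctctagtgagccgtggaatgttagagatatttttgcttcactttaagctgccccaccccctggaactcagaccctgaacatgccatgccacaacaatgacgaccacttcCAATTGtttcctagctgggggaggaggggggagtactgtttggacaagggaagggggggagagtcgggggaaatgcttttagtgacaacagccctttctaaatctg
*Acta1* (chr8:123894776-123895025, minus strand): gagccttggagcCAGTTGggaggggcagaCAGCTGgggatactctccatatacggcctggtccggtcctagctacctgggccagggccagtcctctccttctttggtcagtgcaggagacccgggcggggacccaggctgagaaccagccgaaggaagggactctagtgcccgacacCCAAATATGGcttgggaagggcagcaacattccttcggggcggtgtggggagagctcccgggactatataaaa
*Mstn* (chr1:53061390-53061639, plus strand): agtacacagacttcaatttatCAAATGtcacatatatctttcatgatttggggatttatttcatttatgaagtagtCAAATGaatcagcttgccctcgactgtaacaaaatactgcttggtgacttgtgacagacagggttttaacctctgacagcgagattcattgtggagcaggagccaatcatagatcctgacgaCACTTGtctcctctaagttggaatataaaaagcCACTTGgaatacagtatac
The *Myh4* window held 2 E-boxes, 1 MEF2 site and 1 CArG box, the *Acta1* window 2 E-boxes and 1 CArG box, the *Myh7* window 1 E-box and the *Mstn* window 4 E-boxes. Over the members, 23 of 29 windows held an E-box, against 66% of the windows of all 27025 genes. A MEF2 site was found in 4 member windows and in 3.01% of all windows, and a CArG box in 3 member windows and in 1.4% of all windows. Both strands were searched, only the first window listed for a gene was used, and a match is a description of the letters and not of binding.

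The 11 genes of the fast sarcomere together had 437, 50.4 and 3534 TPM with sh Control, 185, 108 and 32.4 with sh2 and 1161, 114 and 224 with sh3, against 14.5, 3.23 and 296, then 28.6, 5.19 and 3.04, then 67.6, 7.95 and 13.5 for the 5 slow genes. In every tumor the fast genes had more TPM than the slow genes. *Myh4*, the heavy chain of the fastest fibres, had 1541, 40 and 14908 reads in control tumors 1 to 3, 198, 73 and 4 in the sh2 tumors and 3858, 219 and 341 in the sh3 tumors. *Myh1* had 640, 51 and 5211 reads with sh Control, 290, 94 and 2 with sh2 and 1916, 101 and 180 with sh3. *Myh2* had 140, 14 and 1964 reads with sh Control, 142, 25 and 1 with sh2 and 712, 28 and 83 with sh3. All of them peaked in control tumor 3, followed by sh3 tumor 1, and were at or close to the 3-read floor in sh2 tumor 3. The ratio of the highest to the lowest tumor was 3914-fold for *Myh4* in TPM, with only 4 reads behind the lowest value.

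Fast troponins followed the fast myosins, with an exception at low levels. *Tnnt3*, the fast troponin T, had 925, 44 and 8390 reads with sh Control, 305, 94 and 5 with sh2 and 2252, 220 and 445 with sh3. *Tnnc2*, the fast troponin C, had 500, 20 and 4535 reads with sh Control, 180, 39 and 2 with sh2 and 1275, 130 and 290 with sh3. *Tnni2*, the fast troponin I, had 655, 186 and 3394 reads with sh Control, 251, 383 and 163 with sh2 and 1116, 156 and 299 with sh3. *Tnni2* therefore kept at least 156 reads in every tumor, also where the other fast genes were nearly at 0, and its highest tumor exceeded its lowest 23.4-fold. The remaining fast genes are the myosin light chains *Mylpf* and *Myl1*, the Z-disc genes *Actn3* and *Myoz1*, and *Mybpc2*, a myosin binding protein. All were highest in control tumor 3, between 854 reads for *Myoz1* and 4981 for *Mylpf*, and *Mylpf* kept 55 reads in sh2 tumor 3 while *Mybpc2* had 0, *Myl1* 3, *Myoz1* 3 and *Actn3* 15.

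Within the 4 adult heavy chains, whose lengths are alike, fast chains made up most of the TPM in every tumor. The share of *Myh4* was 66.3% in control tumor 1, 62.4% in control tumor 3, and 57.2%, 59.7% and 53.6% in the sh3 tumors. In sh2 tumor 1 it was 28.1%, where *Myh1* took 41.3%, *Myh2* 20% and *Myh7* 10.6%. The share of *Myh4* was also low in control tumor 2 (36.7%, from 109 reads of the 4 genes) and sh2 tumor 2 (36.7%, from 199 reads). In reads, the exact 95% binomial interval of the *Myh4* share was 24.8 to 31.6% in sh2 tumor 1 and 61.7 to 63.0% in control tumor 3, so these tumors differed beyond counting error, which is all that such an interval covers. Sh2 tumor 3 had 7 reads of the 4 genes in all, too few to give a share.

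**Figure D2:**
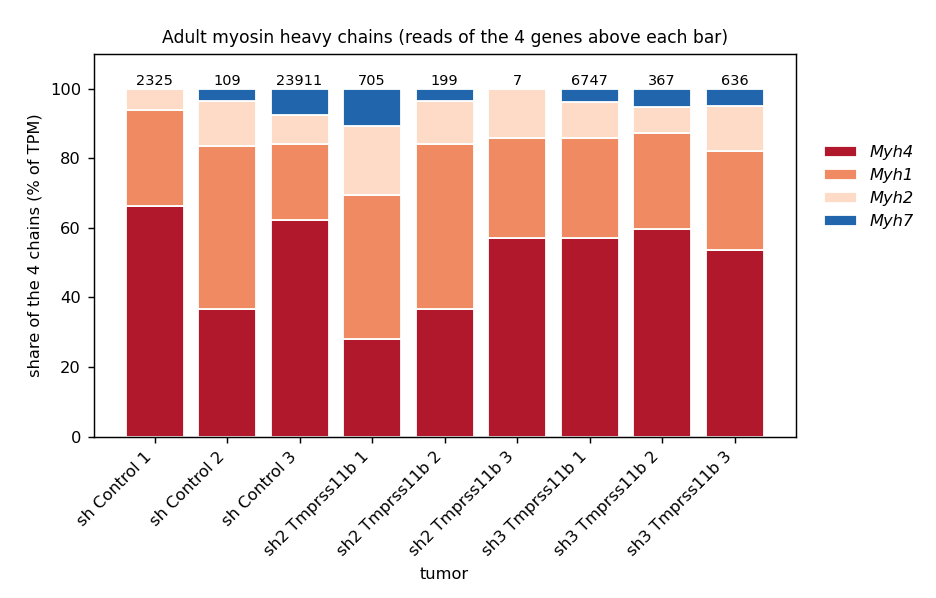
Share of each adult myosin heavy chain in the TPM of the 4 genes together (percent, stacked bars) in each tumor, with the number of reads of the 4 genes above each bar. *Myh4* is the largest part in control tumors 1 and 3 and in the sh3 tumors, and *Myh1* in control tumor 2 and in sh2 tumors 1 and 2.

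Reads of the heavy chains can be hard to assign, because the genes resemble each other. Of all 50-base words in the annotated coding transcripts of *Myh4*, 18.6% also occur in another of 7 heavy chain genes compared (*Myh1*, *Myh2*, *Myh3*, *Myh4*, *Myh6*, *Myh7* and *Myh8*). The percentages were 24.8% for *Myh1*, 26.7% for *Myh2* and 21.2% for *Myh7*. *Myh7* shared at most 0.158% of the words of *Myh1*, *Myh2* or *Myh4*, so its overlap was with the cardiac *Myh6*, and the slow and fast troponins shared none. The treatment of reads with several matches is not given in the sources used here, which limits the split between *Myh1*, *Myh2* and *Myh4* more than that between slow and fast.

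The slow genes were fewer in reads and did not keep a constant ratio to the fast ones. *Myh7*, the slow heavy chain, had 4, 4 and 1828 reads with sh Control, 75, 7 and 0 with sh2 and 261, 19 and 32 with sh3. Control tumor 1, next after sh3 tumor 1 in *Myh4* and *Myh1*, thus had no more *Myh7* reads than control tumor 2, and 1828 of the reads, 82.0% of all, came from control tumor 3. The slow troponin I, *Tnni1*, had 38, 7 and 478 reads with sh Control, 61, 15 and 9 with sh2 and 105, 20 and 39 with sh3. *Tnnt1*, the slow troponin T, had 33, 10 and 848 reads with sh Control, 77, 10 and 11 with sh2 and 165, 30 and 53 with sh3. *Tnnc1*, the troponin C of slow and cardiac muscle, had 29, 9 and 601 reads with sh Control, 79, 12 and 9 with sh2 and 123, 19 and 29 with sh3. In each of these 4 genes sh2 tumor 1 stood above control tumor 1, the reverse of their order in *Myh4*. *Mybpc1*, the slow myosin binding protein, ran from 0 reads in sh2 tumor 3 to 2043 in control tumor 3, with 152 in control tumor 1 and 112 in sh2 tumor 1, and so followed the fast genes here.

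The slow share of each family puts these counts in percent, but the families are not fully comparable. Cells other than skeletal muscle can express *Tnnt1*, and *Tnni2* kept at least 156 reads in every tumor. In control tumor 2 the slow share of reads was 3.63% for troponin I, 18.5% for T (54 reads) and 31.0% for C (29 reads). For the heavy chains, *Myh7* made up 0.172% of the reads of the 4 genes in control tumor 1 (exact 95% binomial interval 0.0469 to 0.440%), 7.65% in control tumor 3 (7.31 to 7.99%) and 10.6% in sh2 tumor 1 (8.46 to 13.2%). It was 3.87%, 5.18% and 5.03% in the sh3 tumors. Control tumor 1 was thus the tumor with the smallest slow share among the 8 that had over 100 reads of these genes, and sh2 tumor 1 the one with the largest. The troponins gave a like picture for that pair: the slow share of troponin I was 5.48% of reads in control tumor 1 against 19.6% in sh2 tumor 1, that of troponin T 3.44% against 20.2%, and that of troponin C 5.48% against 30.5%. In control tumor 3 the same shares were 12.3%, 9.18% and 11.7%. The troponin values of sh2 tumor 3, 68.8% for T and 81.8% for C, rest on 16 and 11 reads. Their exact 95% binomial intervals were 41.3 to 89.0% and 48.2 to 97.7%. Median slow shares in TPM over the 9 tumors were 3.86% for the heavy chains, 5.33% for troponin I, 11.5% for troponin T and 12.6% for troponin C. These medians include sh2 tumor 3, whose heavy chain share rests on only 7 reads.

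**Figure D3:**
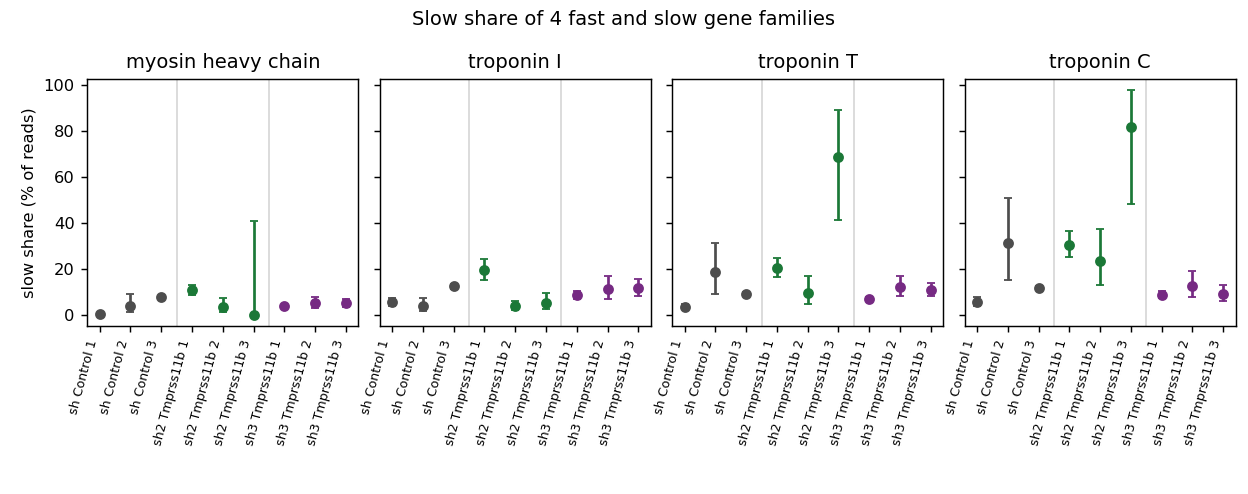
Slow share of the reads (percent, vertical axis) in 4 gene families for each tumor, *Myh7* among the heavy chains and *Tnni1*, *Tnnt1* and *Tnnc1* among the troponins, with exact 95% binomial intervals that cover counting error only. Sh2 tumor 1 (first green point) lies above control tumor 1 (first grey point) in all 4 panels, and the wide intervals of sh2 tumor 3 come from its few reads.

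Genes that fast and slow fibres share gave the level of muscle RNA without regard to type. *Acta1*, skeletal actin, was the member with the most TPM in control tumors 1 and 3, at 192, 9.23 and 1773 TPM in the control tumors, 75.5, 17.9 and 0.736 in the sh2 tumors and 616, 37.7 and 79.5 in the sh3 tumors. The reads behind these values ran from 12 in sh2 tumor 3 to 27537 in control tumor 3. *Des*, the intermediate filament desmin, which smooth muscle and pericytes also express, had 912, 217 and 4747 reads with sh Control, 561, 287 and 127 with sh2 and 2110, 261 and 402 with sh3. Its range was narrower than that of *Acta1*, 39.3-fold in TPM against 2410-fold. The giant proteins titin (*Ttn*) and nebulin (*Neb*), which set the lengths of the sarcomere and of its thin filaments, had 40 to 6911 and 13 to 3905 reads. The Z-disc genes *Actn2*, *Tcap*, *Myot* and *Ldb3* had between 847 and 2237 reads in control tumor 3. In sh2 tumor 3, *Actn2* had 1 read, *Tcap* 8, *Myot* 0 and *Ldb3* 31.

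In calcium handling, *Atp2a1* (SERCA1) pumps calcium back into the reticulum of fast fibres. It had 1297, 84 and 13134 reads with sh Control, 306, 64 and 31 with sh2 and 2864, 241 and 364 with sh3. Its values in TPM were 37.4, 2.38 and 386 with sh Control, 9.0, 1.97 and 0.868 with sh2 and 90.4, 6.59 and 9.51 with sh3. The groups overlapped: sh3 tumor 1 lay above control tumors 1 and 2, and sh2 tumor 1 and all 3 sh3 tumors lay above control tumor 2. *Casq1*, the calcium store of the fast reticulum, had 232, 106 and 2154 reads with sh Control, 114, 73 and 49 with sh2 and 571, 65 and 113 with sh3. *Pvalb*, the calcium buffer parvalbumin of fast fibres, had 233, 7 and 2874 reads with sh Control, 79, 21 and 1 with sh2 and 570, 86 and 219 with sh3. *Casq1* kept 49 reads in the tumor where *Pvalb* had 1. The release channel *Ryr1*, its voltage sensor *Cacna1s* and triadin (*Trdn*) peaked in control tumor 3 at 2912, 581 and 1062 reads and had 3, 2 and 2 in sh2 tumor 3.

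Among the metabolic genes, *Ckm*, muscle creatine kinase, had 900, 34 and 8897 reads with sh Control, 242, 52 and 5 with sh2 and 2093, 195 and 532 with sh3. *Mb*, myoglobin, which stores oxygen in oxidative fibres, had 153, 37 and 1674 reads with sh Control, 138, 39 and 7 with sh2 and 480, 67 and 131 with sh3. Read against *Ckm* within a tumor, myoglobin stood at 17.0 reads per 100 *Ckm* reads in control tumor 1 and 18.8 in control tumor 3 but at 57.0 in sh2 tumor 1, with exact 95% intervals of 14.2 to 20.2, 17.8 to 19.8 and 45.9 to 70.6. It was higher still in control tumor 2, at 109 (66.4 to 179), and in sh2 tumor 2, at 75 (48.2 to 116), both with few *Ckm* reads, and 22.9, 34.4 and 24.6 in the sh3 tumors. *Pygm*, the glycogen phosphorylase of muscle, ran from 25 reads in sh2 tumor 3 to 3443 in control tumor 3. *Eno3*, the muscle enolase, was unlike all other members: it had 2101, 2549 and 3993 reads with sh Control, 2292, 3334 and 1571 with sh2 and 4627, 1618 and 2943 with sh3. Its range between tumors was 3.32-fold, so that it was at 94.3 TPM in the very tumor in which *Ckm* was at 0.340 TPM.

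**Figure D4:**
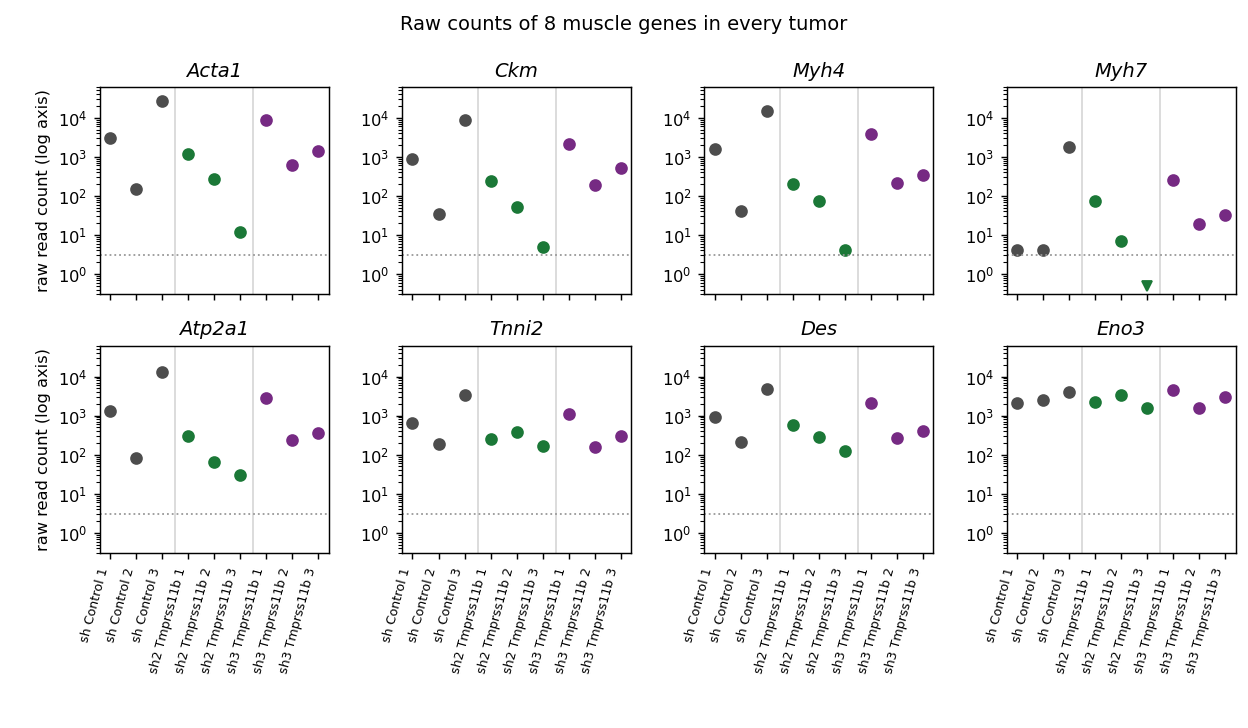
Raw read counts of 8 members in each tumor on a log axis (sh Control grey, sh2 Tmprss11b green, sh3 Tmprss11b purple); the dotted line marks 3 reads and a triangle stands for 0 reads. *Acta1*, *Ckm*, *Myh4* and *Atp2a1* repeat 1 pattern, and *Myh7* drops out of it in control tumor 1. *Tnni2* and *Des* level off in the tumors with few *Ckm* reads, and *Eno3* is nearly flat.

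The myogenic genes had few reads. *Mstn*, which encodes myostatin, the secreted brake on muscle growth that adult fibres produce, had 37, 0 and 65 reads with sh Control, 1, 0 and 0 with sh2 and 5, 2 and 3 with sh3. Control tumors 1 and 3 held 102 of its 113 reads. Control tumor 2 held none, so the groups overlapped, and a count of 0 allows up to 3 reads. Per 100 *Ckm* reads, *Mstn* had 4.11 reads in control tumor 1 (exact 95% interval 2.88 to 5.71) against 0.731 in control tumor 3 (0.563 to 0.932) and 0.239 in sh3 tumor 1 (0.0775 to 0.558). Relative to *Ckm*, control tumor 1 thus stood above both of the tumors with more muscle RNA. In the sh2 tumors the intervals were wide, 0.0104 to 2.32 in sh2 tumor 1 and 0 to 7.35 in sh2 tumor 2.

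*Myod1*, the factor that commits cells to the muscle lineage, had 10, 3 and 29 reads with sh Control, 15, 0 and 0 with sh2 and 14, 1 and 1 with sh3. *Myog*, which drives differentiation of myoblasts, had 24, 6 and 39 reads with sh Control, 35, 12 and 0 with sh2 and 37, 6 and 6 with sh3. Its 3 highest tumors thus differed little (35 to 39 reads), although their *Ckm* reads were 242, 2093 and 8897. Per 100 *Ckm* reads, *Myog* had 14.5 reads in sh2 tumor 1 (exact 95% interval 9.84 to 20.7), 2.67 in control tumor 1 (1.70 to 3.99), 1.77 in sh3 tumor 1 (1.24 to 2.44) and 0.438 in control tumor 3 (0.311 to 0.60). Control tumor 2 and sh2 tumor 2, with few reads of either gene, had 17.6 (6.06 to 42.5) and 23.1 (11.2 to 43.8), so that sh2 tumor 1 was not alone in its ratio. *Pax7*, the marker of satellite cells, had 7 reads in control tumor 3 and 0 in each of the other 8 tumors.

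The design compares each hairpin with the control, the mean of both hairpins with the control, and sh3 with sh2. With edgeR's quasi-likelihood test on all 9 tumors, 36 members were tested (*Mstn* and *Pax7* had too few reads), and 0 of them passed a false discovery rate (FDR) of 0.05 in any of the 4 comparisons. No other gene passed either: 0% of the 14725 genes tested were called in each comparison. At an unadjusted P under 0.05, the counts were 22 of 36 members for sh2 against sh Control (3.52% of all genes), 0 of 36 for sh3 against sh Control (6.63%), 12 of 36 for both hairpins against sh Control (4.09%) and 0 of 36 for sh3 against sh2 (7.18%). Since the comparisons of the hairpins with the control had served to choose the set, nothing is read from these counts against sh Control. DESeq2's Wald test called 0 members in each comparison as well, where it called 0.0103% of all genes for sh2, 0.269% for sh3, 0.059% for both hairpins and 0.478% for sh3 against sh2.

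The median log2 fold change of the 36 members was −3.92 for sh2 against sh Control, −1.40 for sh3 against sh Control, −2.64 for both hairpins and 2.38 for sh3 against sh2, where the median of all genes lay between 0.01 and 0.03. All 36 were lower than control with sh2, and 35 with sh3. These medians rested on control tumor 3: without it they were −0.89 for sh2, 1.30 for sh3 and 0.03 for both hairpins, with 30 of 36 members lower with sh2 and 35 of 36 higher with sh3. Without sh3 tumor 1, the median for sh3 against sh2 was 0.70 over 37 members. *Acta1* had a log2 fold change of −4.33 (standard error 1.91) with sh2 and −1.33 (standard error 1.69) with sh3, which became −1.68 and 1.30 without control tumor 3. *Ckm* had −4.96 (standard error 1.85) with sh2 and −1.64 (standard error 1.58) with sh3, and *Myh4* −5.81 (standard error 2.06) and −1.73 (standard error 1.70). *Myh7* turned from −4.41 (standard error 2.27) with sh2 to 2.77 once control tumor 3 was left out. *Eno3* had −0.15 (standard error 0.42) with sh2 and 0.24 (standard error 0.42) with sh3, and 0.14 and 0.52 without control tumor 3.

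**Figure D5:**
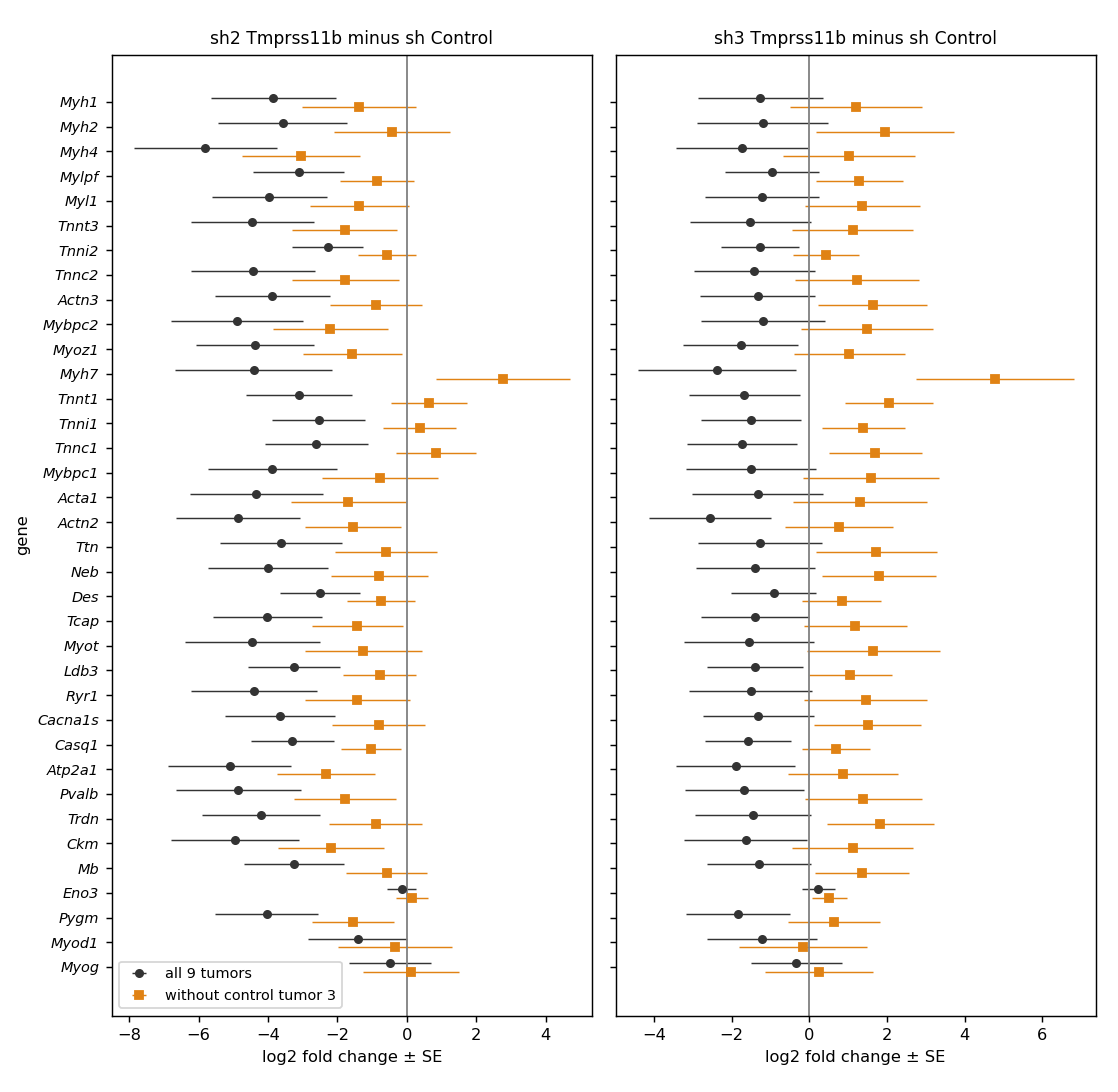
Log2 fold change (horizontal axis, bars show the standard error of edgeR's fit) of the 36 tested members for sh2 Tmprss11b (left) and sh3 Tmprss11b (right) against sh Control, with all 9 tumors (black) and without control tumor 3 (orange). Without that tumor, 30 of 36 members remain below 0 with sh2 and 35 of 36 lie above 0 with sh3.

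For no member did the tumors of a hairpin, or the 6 shRNA tumors together, lie wholly above or below the control tumors. Among all genes tested, 11.4% did so for sh2, 12.2% for sh3 and 2.17% for the 6 shRNA tumors. Between the hairpins, the 3 sh3 tumors lay above the 3 sh2 tumors for *Myh4*, *Myoz1*, *Tcap* and *Pvalb*, named here after their values were seen. These 4 of 36 compare with 10.1% of all genes that did not overlap in either direction. *Myh4* had a log2 fold change of 4.08 (standard error 1.92, FDR = 0.673 by edgeR) and *Pvalb* of 3.18 (standard error 1.70, FDR = 0.683 by edgeR).

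The spread within groups was the main feature of these genes. The pooled within-group standard deviation of log2 CPM had a median of 2.52 over the 36 members, against 0.29 over all genes tested. Each of the 36 exceeded the median of all genes, from 0.61 for *Eno3* to 3.31 for *Myh7*. Inside the groups, the median over members was 3.37 in sh Control, 1.82 in sh2 Tmprss11b and 1.64 in sh3 Tmprss11b, beside 0.18, 0.22 and 0.35 for all genes. Members next above *Eno3* were *Myod1* at 1.5, *Tnni2* at 1.51, *Myog* at 1.61, *Casq1* at 1.61 and *Des* at 1.68.

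Most other muscle genes were also highest in control tumor 3. For some of them the highest tumor exceeded the lowest by little, 1.85-fold for *Pdlim5* and 1.79-fold for *Atp2a3*. Of 47 further structural muscle genes, 46 had at least 10 reads in some tumor and 44 of these were highest in control tumor 3. *Xirp2*, an actin-binding protein of the sarcomere, had 286, 54 and 3302 reads with sh Control, 224, 84 and 1 with sh2 and 1318, 72 and 74 with sh3. *Myom2*, an M-band protein, had 113, 9 and 775, then 47, 11 and 1, then 275, 17 and 29 in the same order, and *Cmya5* peaked in control tumor 3 at 2728 reads. Among further genes of calcium handling, 17 of 20 with at least 10 reads were highest there, *Sypl2*, *Scn4a*, *Hrc* and *Jsrp1* among them at 595, 483, 539 and 165 reads. Among genes of muscle metabolism it was 19 of 23, with *Eef1a2* at 1343, *Pgam2* at 1035, *Ckmt2* at 381 and *Ampd1* at 638 reads. None of these genes passed an FDR of 0.05 by edgeR in any comparison.

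The light chains of slow fibres were also low in control tumor 1. *Myl2*, the light chain of slow and cardiac fibres, had 3, 1 and 661 reads with sh Control, 34, 1 and 4 with sh2 and 80, 10 and 37 with sh3. *Myl3*, another of them, had 2, 1 and 311 reads with sh Control, 3, 2 and 0 with sh2 and 26, 4 and 15 with sh3, so that sh2 tumor 1, with 75 *Myh7* reads, had few of *Myl3*. Control tumor 1 was thus near the floor in *Myh7*, *Myl2* (3 reads) and *Myl3* (2 reads), while its *Myh4* had 1541 reads.

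Genes of muscle regeneration and of the myostatin pathway moved less as groups. Of 21 regeneration genes with at least 10 reads, 11 were highest in control tumor 3. *Igfn1*, a Z-disc protein of muscle, had 5, 1 and 971 reads with sh Control, 25, 6 and 0 with sh2 and 534, 28 and 17 with sh3, so that control tumor 1 was near the floor, as it was for *Myh7*. The subunit of the acetylcholine receptor *Chrna1* peaked at 200 reads in control tumor 3, *Myf6* at 107 and *Musk* at 27. The embryonic and perinatal heavy chains *Myh3* and *Myh8*, named after their values were seen, had at most 25 and 27 reads, from sh3 tumor 1 and control tumor 1. Per 100 *Ckm* reads, *Myh3* had 7.44 in sh2 tumor 1 (exact 95% interval 4.33 to 12.0) and 0.191 in control tumor 3 (0.111 to 0.306). It was 11.8 in control tumor 2 (3.03 to 33.0) and 17.3 in sh2 tumor 2 (7.50 to 35.4).

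In the myostatin pathway, 2 of 15 genes with at least 10 reads were highest in control tumor 3. The receptor *Acvr2b* had 52 to 209 reads, the ligands *Gdf11* and *Inhba* 18 to 79 and 293 to 1146, and the antagonist *Fst* 172 to 915, none of them in the order of the muscle genes. Of the 13 genes of muscle atrophy, 2 were highest in control tumor 3, among them *Trim63*, a ubiquitin ligase of the sarcomere, with 25, 1 and 135 reads with sh Control, 16, 3 and 0 with sh2 and 54, 4 and 10 with sh3. *Eda2r*, *Bnip3* and *Mt2* did not follow it and had their highest values in sh2 tumors.

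Most markers of heart and fat did not share the order of the muscle genes. Of the 8 cardiac markers with at least 10 reads, 3 were highest in control tumor 3, and the summed level of the list was 519 TPM there against 396 to 1093 TPM in the other tumors. The defining markers *Nppa* and *Myl7* had at most 1 read in any tumor, *Nppb* at most 17 and *Tnni3* at most 38. *Tnnt2*, cardiac troponin T, had 5194 to 12423 reads. It made up most of the summed level of the list, 497 of 519 TPM in control tumor 3. *Myh6* had 314 reads in control tumor 3 and at most 35 elsewhere, and it shares words with *Myh7* as described. Of the 12 adipocyte markers with at least 10 reads, 4 were highest in control tumor 3, and 0 had sh3 tumor 1 next after it. The summed level of the adipocyte markers had another order: it was 217, 360 and 326 TPM with sh Control, 118, 119 and 286 with sh2 and 150, 130 and 123 with sh3. *Cfd* (adipsin) had 388, 912 and 613 reads with sh Control, 7, 8 and 699 with sh2 and 78, 25 and 6 with sh3. Its 4 highest tumors thus included both the highest and the lowest tumor in muscle RNA. The summed level of smooth muscle and pericyte markers lay between 235 and 480 TPM and was highest in sh2 tumor 3. Of 11 such genes with at least 10 reads, 1 was highest in control tumor 3.

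Of the 8 tendon markers, 6 were highest in control tumor 3, and 3 of them had sh3 tumor 1 next (*Thbs4*, *Comp* and *Chad*). That second place rested on 1 read for *Chad*, and on 13 reads for *Comp*, which also had 13 in control tumor 1. The summed level of the tendon markers was 60.3, 49.1 and 122 TPM with sh Control, 55.7, 26.5 and 68.6 with sh2 and 60.7, 48.8 and 42.9 with sh3. Thus sh2 tumor 3, lowest in muscle RNA, came next after control tumor 3. *Scx* was highest in control tumor 1 (439 reads) and *Mkx* in sh2 tumor 1. In control tumor 3, *Tnmd* had 59 reads against at most 6 elsewhere, *Kera* 28 against 0 in all other tumors, and *Comp* 118 against at most 13. *Thbs4* and *Fmod* also peaked in control tumor 3, at 1802 and 427 reads. Among Schwann cell markers, 2 of 9 were highest in control tumor 3. None of the 8 carcinoma markers was highest in control tumor 3, and their summed level ran from 4755 TPM in sh3 tumor 2 to 10672 TPM in sh2 tumor 2, with 5457 TPM in control tumor 3. The part of these markers in the differences between tumors was not tested.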

How the data were processed

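RNA-seq data of 9 KLN205 tumors, 3 per group, were analysed. The labels gave each tumor's group and replicate number. Libraries were poly-A selected and strand specific. Per the submitters' processing notes, the authors used FastQC, STAR 2.5.3a, featureCounts and edgeR with mm10, and the authors deposited raw counts per gene for 19481 genes. The annotation, the strand setting and the handling of reads with several matches are not given in the sources used here. The authors also deposited TPM, which was used for levels compared between genes, and a CPM signal scaled by TMM factors, used only to check the counts. A further 10 deposited columns hold the authors' own comparisons (log2 fold changes and log2 levels, a likelihood ratio score, p-values and FDR) and were not used.

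Counts were fitted in R 4.3.3 with edgeR 4.0.16 on all 9 tumors, with 1 coefficient per group, filterByExpr by group (14725 genes), TMM factors and robust quasi-likelihood tests. Benjamini-Hochberg adjustment ran over all 14725 genes, with significance set at an FDR of 0.05. Alternatives tried were the Wald test of DESeq2 1.42.0, its size factors inside edgeR, the likelihood ratio test of edgeR, a fit without the filter, a filter of 10 or more counts in all tumors, a fit of the compared groups alone, a replicate block, and the omission of single tumors, together with CPM in place of TPM and other gene choices for sums and shares. Leaving out tumors for the sums, shares and spread was added after seeing the data. The fit was tested on simulated counts. Total counts were 20653219 to 24047784 per tumor, and intervals and the floor of 3 counts hold counting error alone, because copies of 1 molecule cannot be told from separate molecules without molecular identifiers.

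The members and gene lists were chosen with earlier results of these data known. Named genes are the members, with values in every tumor for *Mstn*, *Atp2a1*, the fibre type pairs, *Acta1*, *Ckm*, *Mb*, *Casq1*, *Pvalb*, *Myod1*, *Myog* and *Pax7*, and up to 4 genes per other list with the largest ratio of highest to lowest tumor. Genes beyond this rule (*Tnmd*, *Kera*, *Scx*, *Mkx*, *Myl2*, *Myl3*, *Myh3*, *Myh8* and other examples of the lists, and values in every tumor for further members) were named after their values were seen. Summaries used pandas 2.3.3, numpy 2.4.6 and scipy 1.17.1 under Python 3.11.15, and figures matplotlib 3.10.9.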

Additional observations from a re-analysis of the deposited data

How the results depend on the processing

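No member passed an FDR of 0.05 under any alternative run, and in most alternatives the medians and shares moved by less than the spread between tumors. Leaving out tumors in turn gave medians from −5.46 to −0.89 for sh2 against sh Control, −3.08 to 1.30 for sh3 against sh Control and −3.65 to 0.032 for both hairpins, the upper end of each being the fit without control tumor 3. That fit also turned the sign of the log2 fold change against sh Control for 10 of the 16 gene and hairpin pairs followed. The ranges over left-out tumors whose sign changed were −7.24 to 2.77 for *Myh7*, −0.55 to 0.14 for *Eno3* and −1.74 to 0.12 for *Myog* with sh2. With sh3 they were −3.20 to 1.30 for *Acta1*, −3.04 to 1.12 for *Ckm*, −4.13 to 1.0 for *Myh4*, −4.41 to 4.78 for *Myh7*, −2.48 to 0.43 for *Tnni2*, −2.40 to 0.83 for *Des*, −0.20 to 0.52 for *Eno3* and −1.75 to 0.25 for *Myog*. The cause was not tested.

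With the replicate number as a block, 0 members passed and the medians were −3.17 for sh2, −1.07 for sh3, −2.17 for both hairpins and 1.89 for sh3 against sh2. The 9 same-numbered pairs correlated at −0.235 to 0.0863 after group means were removed, and 0 tumors correlated best with their own number. With 3 tumors a group, these correlations cannot decide whether same-numbered tumors were handled together. The labels do not say what the numbers stand for.

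The median within-group standard deviation of the members was 2.52 (1.95 to 2.75 with a tumor left out). A detection limit for genes with that spread was not computed, so the lack of calls does not show that the groups had like levels. The edgeR likelihood ratio test called 0 to 14 genes per comparison in place of 0, and at an unadjusted P under 0.05 the count of members for sh2 against sh Control ranged from 0 to 34 over the alternatives.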
